A study of Mus musculus with 24 samples.

Results

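Basal cells of the pubertal mouse mammary gland were compared between terminal end buds (TEBs), the bulbous growing tips of the ductal tree, and the ducts behind them. The comparison held 8 of the study's 24 bulk RNA-seq libraries, namely every library of the basal gate. This gate is the lineage-negative, EpCAM-positive fraction with high CD29 (integrin beta 1), sorted by flow cytometry after TEBs and ducts had been separated by microdissection. It had 4 groups of 2 libraries, which were ducts and TEBs of mice with the Elf5-rtTA-IRES-GFP allele and ducts and TEBs of PR-cre/Rosa26-LSL-eYFP mice, called here the Elf5 and the PR-cre model. The other 16 libraries came from the luminal gate of the same models. In the first model a GFP reporter and a reverse tetracycline transactivator sit under Elf5, a gene of luminal progenitors, and in the second Cre under the progesterone receptor gene switches on YFP. Both reporters were used to divide the luminal gate, and the basal gate was not divided by them. All mice were pubertal. The sources used here do not give strain, exact age or the number of animals behind a library. The p-values therefore rest on the spread of the libraries, part or all of which may be technical.

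The mammary epithelium has a luminal layer that faces the lumen and a basal layer that rests on the basement membrane. In ducts the basal layer consists mainly of myoepithelial cells, which hold keratins of the KRT5 and KRT14 kind together with smooth muscle actin and myosin, contract in response to oxytocin and secrete basement membrane. At the tip of a TEB the outer layer is formed by cap cells, which divide while the bud advances through the fat pad and are regarded as precursors of ductal myoepithelial cells. The gate was not sorted further, so cap cells were not separated from other basal cells of the bud. A lower level of a transcript can therefore reflect fewer cells of a kind or less RNA in each cell, which these bulk data cannot tell apart.

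The libraries held a total of 35292142 to 49509281 counts assigned to genes, and 17481 to 18343 genes were detected with 1 count or more per library. Levels are given as CPM, which are counts scaled to a common library size, here after TMM normalisation. Fold changes are on the log2 scale, TEB over duct, averaged over both models with equal weight and given ± standard error (SE), and a gene is called at an adjusted p under 0.05 in edgeR's quasi-likelihood test over all 16576 genes tested. Basal markers were present in every library. Trp63, the transcription factor of basal epithelial identity, lay between 337 and 592 CPM, Itgb1 (CD29) between 1228 and 1489 CPM, and Sox10 between 132 and 265 CPM. Epcam lay between 178 and 328 CPM, whereas the luminal factors Foxa1, between 0.573 and 2.46 CPM, and Elf5, between 0.994 and 27.5 CPM, were low. Luminal signal was not absent, since all 18 luminal identity genes, these and Epcam included, summed to between 1105 and 1458 CPM in ducts. In TEBs they summed to between 725 and 1083 CPM. Mitochondrial genes took between 2.82% and 3.77% of the counts in ducts and between 3.14% and 3.9% in TEBs.

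Transcripts of cells outside the gate differed between the groups. Leukocyte markers (18 genes) summed to between 16.8 and 40.8 CPM in ducts and 5.62 and 10.5 CPM in TEBs, and 7 MHC class II genes to between 20.2 and 40.9 and 4.73 and 8.79 CPM. The 15 endothelial markers summed to 141 and 58.4 CPM in the Elf5 ducts, 17.1 and 25.9 CPM in the PR-cre ducts, while the TEBs held between 24.9 and 30.1 CPM. The 8 pericyte markers summed to 86.9 and 72.8 CPM in Elf5 ducts, 29.5 and 30.0 in PR-cre ducts and between 19.3 and 32.3 in TEBs. Glycam1, a mucin of lymph node vessels and of milk, stood at 138 and 43.1 CPM in Elf5 ducts, 7.17 and 27.6 in PR-cre ducts, 0 and 0 in Elf5 TEBs and 0.0573 and 0.047 in PR-cre TEBs. Fibroblast markers overlapped, at between 2281 and 3092 CPM in ducts and 1827 and 3354 CPM in TEBs. The median log2 fold change of these 15 markers was -0.24 in the Elf5 model and 1.77 in the PR-cre model. In the Elf5 model alone 2 rose and 2 fell, and in the PR-cre model alone 5 rose and 1 fell. The 14 keratinocyte markers summed to 233 and 124 CPM in Elf5 ducts, 395 and 378 in PR-cre ducts and between 359 and 457 in TEBs. Vessel sums were highest in the Elf5 ducts. For lists described below, the count in the PR-cre model alone is given where it differs from the printed count by over 1.5 times, and for some other lists. The part of these transcripts in the results below was not tested.

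**Figure D1:**
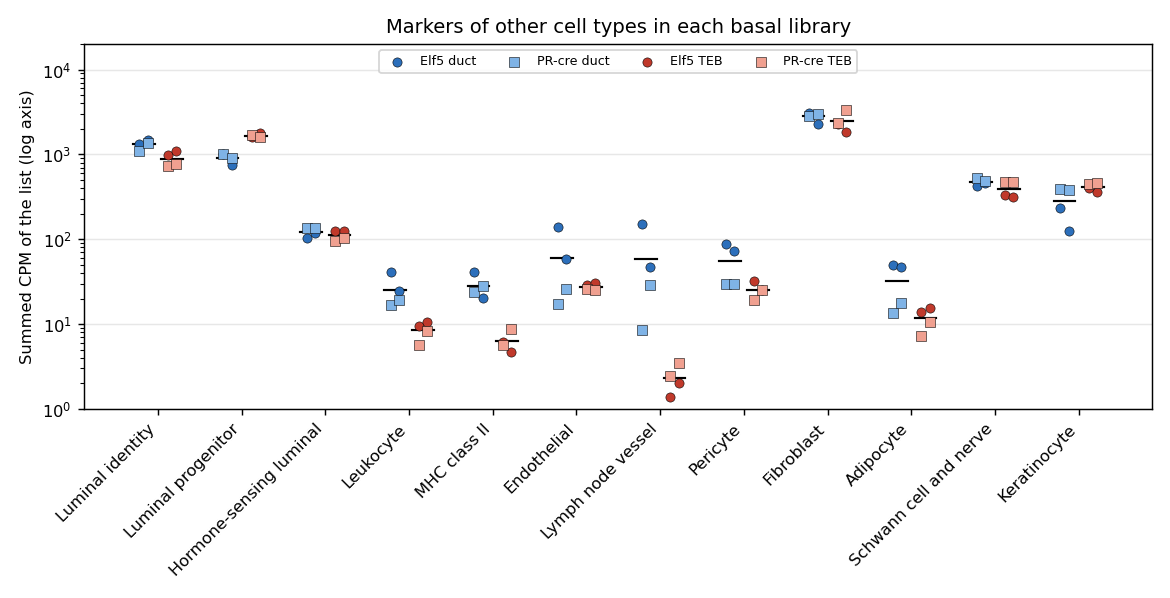
Summed CPM (log axis) of 12 marker lists of other cell types in each of the 8 basal libraries, with ducts in blue, TEBs in red, circles for the Elf5 model, squares for the PR-cre model and a bar at the mean of 4 libraries. The Elf5 ducts have the highest endothelial, lymph node vessel, pericyte and adipocyte sums, and the leukocyte and MHC class II sums of all 4 duct libraries lie above those of all 4 TEB libraries.

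Tissue of origin was the main axis of variation. The first principal component of log2 CPM held 50.3% of the variance and set the TEBs (46.44 to 83.18) apart from the ducts (-79.94 to -60.94), and the second held 21.4% and separated the models. A total of 8612 of 16576 genes (52%) were called, 4313 higher (26%) and 4299 lower (25.9%) in TEBs. Of these, 8419 (50.8% of genes tested) had the same direction in both models. The remaining 193 had opposite directions and a median size of 0.44 on the log2 scale, against 0.78 for those that shared a direction. Changes of more than 2-fold were found in 1316 genes higher (7.94%) and 1995 lower (12%). Called genes lower in TEBs had a median length of 3261 bases, against 2567 for those higher and 2454.5 for genes not called. The part of gene length in the calls was not tested. Tested in each model alone, 7462 genes (45%) were called in the Elf5 model and 5372 (32.4%) in the PR-cre model. Both models called 4295 genes in the same direction (25.9%). Without PR-cre TEB replicate 1 these last counts were 3143 and 2657, and without PR-cre duct replicate 2 the PR-cre model called 3376. In 6757 genes (40.8%) the 4 TEB libraries did not overlap with the 4 duct libraries. For genes named below by their rank in fold change or in CPM difference, lack of overlap was a condition of naming and not a result. Counts over the gene lists below are to be read against the shares higher and lower over all genes tested, since a list can hold many called members and still lie near them. Like those shares, list counts include called genes with opposite directions in the models.

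**Figure D2:**
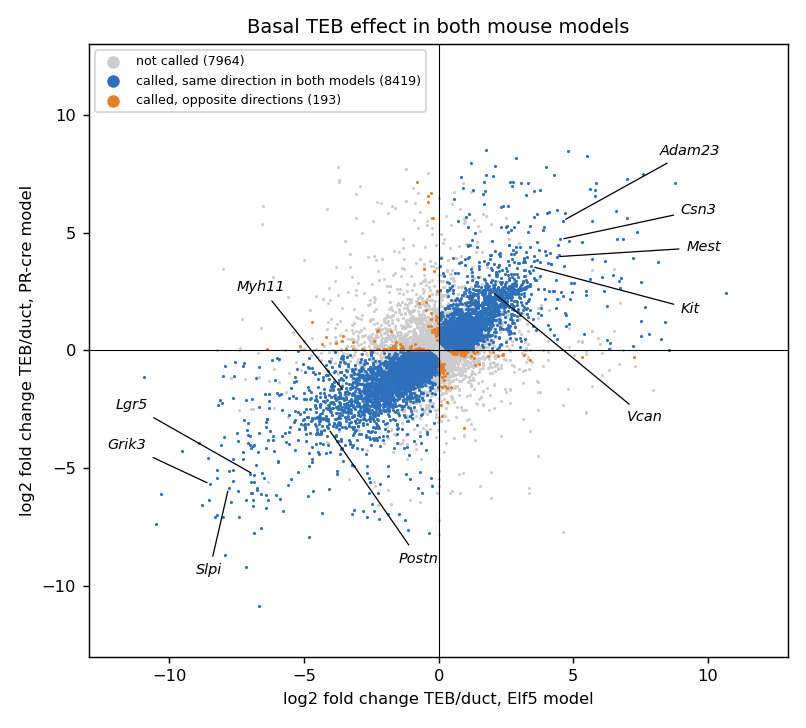
Log2 fold change of TEB over duct in the Elf5 model (horizontal axis) and the PR-cre model (vertical axis) for each of the 16576 genes tested. The 8419 genes called with one direction in both models (blue) fill the upper right and lower left quadrants, and the 193 called genes with opposite directions (orange) lie near the axes.

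Genes of the smooth muscle apparatus, which lets myoepithelial cells contract, were lower in TEBs. Of 32 members tested, 26 fell and 1 rose, with a median log2 fold change of -1.20 against -0.01 over all genes, and in the PR-cre model alone 24 fell. Summed, the list stood at between 44295 and 46156 CPM in ducts and 14196 and 24127 CPM in TEBs. Myh11, the smooth muscle myosin heavy chain, stood at 7227 and 7841 CPM in Elf5 ducts, 7344 and 6979 in PR-cre ducts, 544 and 801 in Elf5 TEBs and 1695 and 2498 in PR-cre TEBs. Every TEB library was below every duct library, and the Elf5 TEBs were lower than the PR-cre TEBs (log2 fold change -2.63 ± 0.16, adjusted p = 4.70e-07). The difference between the models was itself called (Elf5 minus PR-cre -1.71, adjusted p = 0.0187). Smooth muscle actin, Acta2, stood at 9552 and 9623 CPM in Elf5 ducts, 8337 and 9659 in PR-cre ducts, 3125 and 3759 in Elf5 TEBs and 4964 and 5969.6 in PR-cre TEBs, again with no overlap but with a smaller change (log2 fold change -1.10 ± 0.11, adjusted p = 7.36e-06). Oxtr, the receptor through which oxytocin causes contraction, stood at 1423 and 1767 CPM in Elf5 ducts, 1372 and 1440.4 in PR-cre ducts, 92.5 and 118 in Elf5 TEBs and 268 and 349 in PR-cre TEBs. Its TEB levels were below all ducts in both models (log2 fold change -3.06 ± 0.13, adjusted p = 2.55e-08), and the fall was larger in the Elf5 model.

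The fall differed in size along the apparatus. Among regulators of actin and myosin, Lmod1 (-2.98 ± 0.15), an actin nucleator of smooth muscle, Cnn1 (-2.49 ± 0.15), which binds actin and tropomyosin, Mylk (-2.12 ± 0.13), the kinase that activates myosin, and Smtn (-2.03 ± 0.11) fell most. Synpo2, a Z-line protein, fell by more in the Elf5 model (-3.85 ± 0.15). Structural proteins shared with other cells changed less, as Flna (-0.55 ± 0.09), Vcl (-0.64 ± 0.08) and Tpm1 (-0.71 ± 0.08) show. Cnn2 was the member that rose (0.21 ± 0.08), with overlapping libraries, and leaving out any single library but Elf5 duct replicate 2 ended its call (adjusted p between 0.064 and 0.114). Srf, the factor that binds CArG boxes in many of these genes, had a log2 fold change of 0.05 ± 0.08 and its coactivator Mrtfb one of -0.18 ± 0.09, and neither was called. The other coactivator, Mrtfa, fell by a small amount (-0.53 ± 0.11) with overlapping libraries.

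A CArG box, searched on both strands in windows from 250 bases before to 50 after each RefSeq start, was found in 5 of the 27 contractile genes with a listed window (18.5%), against 1.66% of 12246 tested genes. The promoter of Myl9, the regulatory light chain of smooth muscle myosin (-1.21 ± 0.11), is shown because it has the largest fall among called members with a match. It is RefSeq sequence of GRCm38.p6, chr2:156775214-156775463, plus strand, the 250 bases before the start, with the box in capitals from 161 to 152 bases before the start.
Myl9: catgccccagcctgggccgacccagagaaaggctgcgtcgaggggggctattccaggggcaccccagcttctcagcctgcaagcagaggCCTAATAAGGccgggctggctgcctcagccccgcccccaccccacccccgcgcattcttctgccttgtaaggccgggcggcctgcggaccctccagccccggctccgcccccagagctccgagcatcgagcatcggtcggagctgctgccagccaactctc

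Basal identity genes were mostly lower, although the list was not uniform. Of 22 tested, 12 fell and 3 rose (5 without PR-cre duct replicate 1), and 10 fell in the PR-cre model alone. With one direction in both models, 12 fell and 2 rose. Krt14 stood at 2844 and 3236 CPM in Elf5 ducts, 2916 and 3441 in PR-cre ducts, 336 and 412 in Elf5 TEBs and 498 and 778 in PR-cre TEBs. Its partner Krt5 stood at 2199 and 2042 CPM in Elf5 ducts, 2711 and 3022 in PR-cre ducts, 724 and 752 in Elf5 TEBs and 614 and 760.3 in PR-cre TEBs. For both keratins the highest TEB library was below the lowest duct library (log2 fold change -2.67 ± 0.15, adjusted p = 3.23e-07 for Krt14; log2 fold change -1.79 ± 0.10, adjusted p = 1.22e-07 for Krt5). Krt17 (-1.94 ± 0.09) and Itgb4 (-1.68 ± 0.10), the integrin of hemidesmosomes, fell as well. Trp63 itself fell by less (-0.48 ± 0.09), and Itgb1 (-0.11 ± 0.08) and Itga6 (-0.02 ± 0.08) were not called. In the other direction, Cd44, a hyaluronan receptor, had 314 ± 83.4 CPM in TEBs and 176 ± 38.1 in ducts (mean ± SD, n = 4 each), a rise of 0.80 ± 0.12. Pdpn, a mucin-type membrane protein of myoepithelial cells, rose by 0.81 ± 0.07.

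Among keratins of the luminal layer, Krt18 (-3.01 ± 0.23), Krt19 (-2.08 ± 0.15) and Krt8 (-1.08 ± 0.11) fell, and of the 33 keratins tested 17 fell and 4 rose. Krt18 stood at 100.1 and 123 CPM in Elf5 ducts, 94.3 and 131 in PR-cre ducts, 9.19 and 14.9 in Elf5 TEBs and 12.4 and 19.7 in PR-cre TEBs. The TEB values were all below the duct values. Luminal identity genes, 18 in number, had 9 members lower and 2 higher (1 higher without Elf5 TEB replicate 1, Elf5 TEB replicate 2, PR-cre duct replicate 1 or PR-cre TEB replicate 2, and in the PR-cre model alone), and summed to between 1105 and 1458 CPM in ducts and 725 and 1083 in TEBs. Of the luminal identity genes, 9 fell and 1 rose with one direction in both models. Luminal progenitor markers, by contrast, summed to between 746 and 1005 CPM in ducts and 1592 and 1792 CPM in TEBs, with 6 of 12 higher, and are taken up with Kit below.

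Basement membrane genes split by chain. The basement membrane is a sheet of laminin heterotrimers and type IV collagen networks that basal cells make and bind. Of 35 genes tested for it and for hemidesmosomes, 13 rose and 14 fell, against 26% and 25.9% of all genes tested. In the PR-cre model alone 12 rose and 12 fell. Lama1, the alpha chain of laminin-111, stood at 1185 and 952 CPM in Elf5 ducts, 437 and 446 in PR-cre ducts, 1752 and 1588 in Elf5 TEBs and 1475 and 1535 in PR-cre TEBs. All TEB libraries were above all duct libraries, with the larger rise in the PR-cre model (log2 fold change 1.21 ± 0.09, adjusted p = 1.28e-06, Elf5 minus PR-cre -1.13, adjusted p = 0.0111). Its partner chains Lamb1 and Lamc1 also rose (0.57 ± 0.08 and 0.47 ± 0.09). Lama3 and Lamb3, chains of the laminin that anchors hemidesmosomes, moved the other way. Lama3 (-0.88 ± 0.08) and Lamb3 (-1.29 ± 0.09) fell, with no overlap between TEB and duct libraries. Lama5 (-0.83 ± 0.11) and Lamb2 (-1.15 ± 0.10), chains of the laminins typical of mature epithelium and vessels, were lower as well, the former with overlapping libraries. Per kilobase, Lama1 had 79.3 RPKM in ducts and 167 in TEBs, and Lama3 125 and 69.

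Type IV collagen showed the same kind of split. Col4a1 stood at 4933 and 3700.2 CPM in Elf5 ducts, 4351 and 3751 in PR-cre ducts, 7468 and 7923 in Elf5 TEBs and 8864 and 9274 in PR-cre TEBs, without overlap between tissues (log2 fold change 1.00 ± 0.11, adjusted p = 1.99e-05), and Col4a2, its partner in the common network, rose by 0.62 ± 0.10. Col4a5 (-0.82 ± 0.08) and Col4a6 (-1.18 ± 0.07), which form a separate network, fell. Both pairs lie side by side on opposite strands. RefSeq places the Col4a1 and Col4a2 starts on chromosome 8, 21 bases apart and overlapping, and those of Col4a5 and Col4a6 on X, 1343 bases apart and diverging. The stretch from the Col4a2 start to the Col4a1 start is shown because one short segment serves as the start of both rising genes. It is GRCm38.p6 chr8:11312805-11312826, plus strand, and the capitals mark the start base of Col4a2 on the left and of Col4a1, which is read on the minus strand, on the right.
Col4a2 to Col4a1: AgtgcgcgggcggcgtctccaA

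Other basement membrane genes followed no single direction. Col18a1, which yields endostatin, stood at 504 and 434 CPM in Elf5 ducts, 569.6 and 434 in PR-cre ducts, 1489.6 and 1573 in Elf5 TEBs and 1609 and 1473 in PR-cre TEBs. Its TEB and duct levels did not overlap (log2 fold change 1.66 ± 0.10, adjusted p = 3.24e-07). Egflam (2.35 ± 0.13) (pikachurin), Frem2 (0.99 ± 0.08) and Plec (0.66 ± 0.11) rose. Nid1 (0.46 ± 0.09) was called but had opposite directions in the models. Dst, the plakin that ties keratin to hemidesmosomes, fell the most among abundant members (-2.13 ± 0.14), beside Cd151 (-0.78 ± 0.07) and, by a small amount, Col17a1 (-0.33 ± 0.08).

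**Figure D3:**
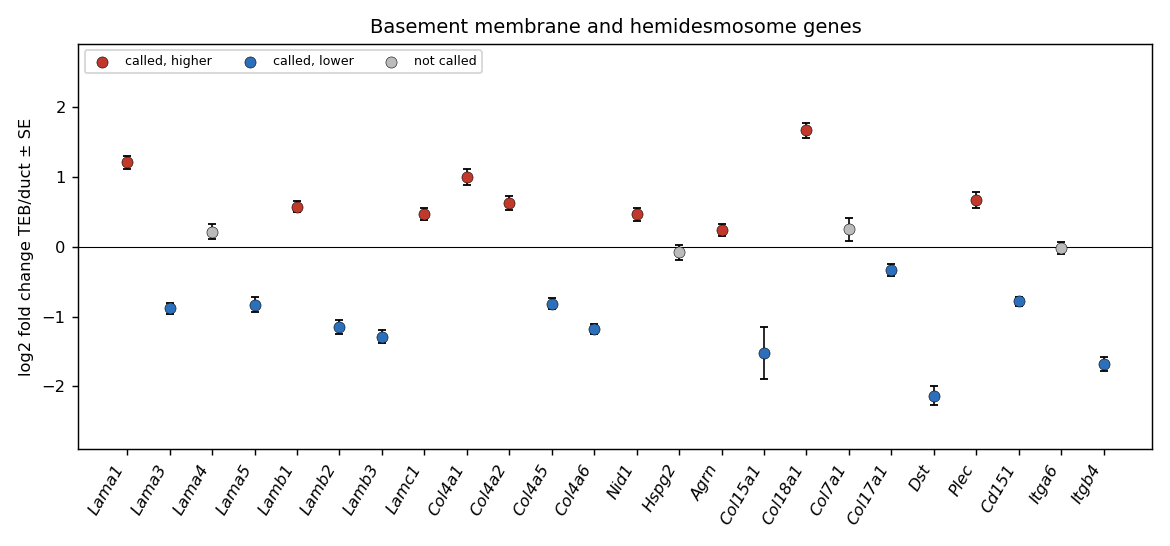
Log2 fold change of TEB over duct ± SE for 24 basement membrane and hemidesmosome genes in the test over 8 basal libraries, with called genes in red (higher) or blue (lower) and uncalled genes in grey. The chains of laminin-111 (Lama1, Lamb1, Lamc1), Col4a1 and Col4a2 lie above 0, and Lama3, Lamb3, Col4a5, Col4a6, Dst and Itgb4 below 0.

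Matricellular genes and matrix enzymes changed in both directions. Vcan, the large hyaluronan-binding proteoglycan versican, stood at 1417 and 562 CPM in Elf5 ducts, 459 and 414 in PR-cre ducts, 3771 and 3929 in Elf5 TEBs and 2650.1 and 2346 in PR-cre TEBs. All TEB values were above the duct values, of which Elf5 duct replicate 1 was the highest (log2 fold change 2.24 ± 0.29, adjusted p = 8.01e-04). Fn1 (2.27 ± 0.15) (fibronectin), Thbs2 (3.21 ± 0.11), Serpine2 (2.997 ± 0.15), a serine protease inhibitor, and Fbn2 (1.46 ± 0.08), the fibrillin prominent in embryos, rose with it. Postn, the matricellular protein periostin, stood at 3909.6 and 5487 CPM in Elf5 ducts, 3562 and 4293 in PR-cre ducts, 259 and 284 in Elf5 TEBs and 263 and 535 in PR-cre TEBs. The highest TEB library had less than any duct library (log2 fold change -3.71 ± 0.26, adjusted p = 2.02e-05). Eln (-2.93 ± 0.21) (elastin), Bgn (-2.32 ± 0.14) (biglycan), Ccn2 (-1.34 ± 0.16) and Thbs1 (-1.05 ± 0.12) fell too. Of 34 matricellular genes and matrix enzymes, 8 rose and 14 fell, against 26% and 25.9% of all genes tested.

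Among the other collagens, 9 of 32 rose and 8 fell, shares close to the background, and 8 rose and 5 fell in the PR-cre model alone. Those that rose included Col2a1 (3.55 ± 0.17), Col9a1 (2.12 ± 0.11), Col9a3 (0.59 ± 0.10) and Col11a1 (1.74 ± 0.11), best known from cartilage, Col25a1 (2.47 ± 0.17), a membrane collagen of neurons, and Col8a1 (4.33 ± 0.23). Col9a1 stood at 82 and 62.5 CPM in Elf5 ducts, 50.4 and 50.7 in PR-cre ducts, 209 and 262 in Elf5 TEBs and 308 and 275 in PR-cre TEBs, with every TEB library above every duct. The rise of Col8a1, a short-chain network collagen, was larger in the Elf5 model (Elf5 minus PR-cre 2.62, adjusted p = 0.0227). Col12a1 (-3.06 ± 0.30) and Col6a1 (-2.69 ± 0.39), collagens found around fibrils, fell. The fibroblast collagen Col3a1 (0.80 ± 0.59) was not called.

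Metalloproteases, their inactive relatives and their inhibitors included the gene with the second largest rise by the naming rule. Adam23, a catalytically inactive ADAM that binds integrins and LGI proteins, stood at 3.39 and 3.83 CPM in Elf5 ducts, 1.92 and 1.29 in PR-cre ducts, 89 and 86.5 in Elf5 TEBs and 78.3 and 65.6 in PR-cre TEBs. TEB levels were all far above those of the ducts (log2 fold change 5.05 ± 0.14, adjusted p = 4.01e-09). Adamts9 (1.23 ± 0.11) and Mmp14 (0.39 ± 0.07), the membrane-type matrix metalloprotease that activates pro-MMP2, rose, while its substrate Mmp2 (-2.29 ± 0.22), Timp3 (-1.498 ± 0.12) and Reck (-1.49 ± 0.16), inhibitors of such enzymes, and Adamts2 (-3.20 ± 0.28), which trims procollagen, fell. Over the family, 13 of 54 rose and 16 fell, near the background.

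Integrin receptors fell more often than they rose (10 and 5 of 27, against 25.9% and 26% of all genes tested). Itga1, a collagen receptor chain, stood at 102 and 152 CPM in Elf5 ducts, 125 and 129.7 in PR-cre ducts, 7.86 and 15.8 in Elf5 TEBs and 22.5 and 30.4 in PR-cre TEBs, and its TEB levels were all lower (log2 fold change -2.85 ± 0.26, adjusted p = 1.47e-04). Itgb8 (-1.47 ± 0.09), which frees TGF-beta from its latent complex, and Itga9 (-0.91 ± 0.10) fell, whereas Itga2 (0.83 ± 0.08), another collagen receptor chain, rose. The abundant Itgb1 (-0.11 ± 0.08), Itga6 (-0.02 ± 0.08) and Itgav (0.05 ± 0.07) were not called. Of 56 genes of adhesion between cells, 9 rose and 16 fell (6 and 9 in the PR-cre model alone), against 26% and 25.9% of all genes tested. The share that fell was near this background. N-cadherin, Cdh2 (2.10 ± 0.08), rose, with a difference between the models, while Cdh13 (-2.87 ± 0.19), Pkp1 (-2.23 ± 0.07) and the tight junction scaffold Tjp1 (-0.84 ± 0.09) fell.

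Ligands and receptors of the ERBB family, which carry growth signals in the mammary epithelium, changed in both directions (7 rose and 6 fell of 17, or 4 and 6 in the PR-cre model alone). Erbb3, a receptor for neuregulins, stood at 8.44 and 7.46 CPM in Elf5 ducts, 9.45 and 9.8 in PR-cre ducts, 48.4 and 52.5 in Elf5 TEBs and 52.6 and 48.3 in PR-cre TEBs, all TEB libraries being higher (log2 fold change 2.53 ± 0.10, adjusted p = 2.22e-08). Its ligands Nrg1 and Nrg2 rose (2.63 ± 0.11 and 1.95 ± 0.30). Nrg2 stood at 18.7 and 13.1 CPM in Elf5 ducts, 50.5 and 21 in PR-cre ducts, 114 and 99.7 in Elf5 TEBs and 88.2 and 70.0 in PR-cre TEBs. The receptor Egfr fell (-1.11 ± 0.10), as did its ligand Hbegf (-1.84 ± 0.17) and its inhibitors Errfi1 (-1.60 ± 0.19), Lrig1 (-0.999 ± 0.07) and Lrig3 (-1.03 ± 0.11). The EGFR ligand Tgfa rose (1.58 ± 0.16), with a larger change in one model (Elf5 minus PR-cre 1.38, adjusted p = 0.0493). The shared partner receptor Erbb2 (0.15 ± 0.10) was not called.

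Several transcripts used as readouts of FGF signalling rose, without a called rise in the main receptor. Etv4, Etv5, Spry2, Spry4, Il17rd and Dusp6 are transcribed downstream of FGF receptors and of the ERK pathway. All of them rose, by 2.49 ± 0.30, 1.63 ± 0.14, 1.00 ± 0.09, 0.78 ± 0.08, 1.31 ± 0.11 and 0.67 ± 0.10. Dusp6 stood at 507 and 667 CPM in Elf5 ducts, 672 and 695 in PR-cre ducts, 907 and 915 in Elf5 TEBs and 1055 and 1185 in PR-cre TEBs. Fgfr2 (0.14 ± 0.08), the epithelial receptor needed for ductal growth, was not called (adjusted p = 0.0337 without Elf5 duct replicate 2), Fgfr1 (-0.40 ± 0.08) fell slightly and Fgfr3 (-2.22 ± 0.18) fell more. The list as a whole (9 rose and 9 fell of 33) lay near the background, and in the PR-cre model alone 10 rose and 4 fell. Immediate early genes, which also respond to growth factors, went the other way, as given below (25 of 28 fell and none rose). Activity of the FGF and ERK pathways was not tested.

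IGF axis genes fell more often, 14 of 24 against 5 that rose, and 7 fell in the PR-cre model alone. Without PR-cre duct replicate 2 the number that fell was 9. Igfbp5, an IGF-binding protein and the most abundant gene of the PR-cre ducts, stood at 5799.7 and 5303 CPM in Elf5 ducts, 11139.6 and 10739.5 in PR-cre ducts, 1421 and 1598 in Elf5 TEBs and 2631 and 3646 in PR-cre TEBs. All TEB values were lower, and the PR-cre libraries were higher than the Elf5 libraries of the same tissue (log2 fold change -1.84 ± 0.12, adjusted p = 3.42e-07). Igfbp7 (-3.15 ± 0.22), Igfbp3 (-1.25 ± 0.15), Ghr (-1.82 ± 0.10), the growth hormone receptor, and Irs2 (-1.92 ± 0.10), an adaptor of the insulin and IGF receptors, were lower. Vessels also make Igfbp7. In the PR-cre model alone its change was -2.74 ± 0.29 (adjusted p = 4.37e-04), where lymph node vessel markers summed to 8.41 and 28.8 CPM in ducts and 2.45 and 3.48 CPM in TEBs, and endothelial markers to 17.1 and 25.9 CPM in ducts and 26.1 and 24.9 CPM in TEBs. The part of vessel transcripts in this fall was not tested. In contrast, Igfbp4 stood at 160.1 and 116 CPM in Elf5 ducts, 113 and 109 in PR-cre ducts, 532 and 479 in Elf5 TEBs and 525 and 560.3 in PR-cre TEBs, higher in every TEB library (log2 fold change 2.08 ± 0.10, adjusted p = 8.13e-08). Igfbp2 (1.05 ± 0.13) and the protease that cleaves IGFBP4, Pappa (0.95 ± 0.11), rose with it, the latter differently in the models.

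Wnt ligands had 7 members lower and 3 higher of 13 (5 higher without either Elf5 duct or without PR-cre TEB replicate 1). Wnt5a, a ligand that often acts without beta-catenin, stood at 58.7 and 62.1 CPM in Elf5 ducts, 88.8 and 75.1 in PR-cre ducts, 220.0 and 189.6 in Elf5 TEBs and 284 and 206 in PR-cre TEBs, and all TEB levels were above the ducts (log2 fold change 1.67 ± 0.11, adjusted p = 6.01e-07). Its receptor Ror2 rose by 2.53 ± 0.15. Wnt6 (1.38 ± 0.20) rose as well, while Wnt11 (-1.87 ± 0.15), Wnt5b (-1.58 ± 0.12) and Wnt10a (-1.35 ± 0.20) fell. Over Wnt receptors, modulators and targets, 11 of 35 rose and 13 fell (6 and 9 in the PR-cre model alone). Among targets of beta-catenin, Axin2 (1.01 ± 0.14), Znrf3 (0.98 ± 0.11) and Tcf7 (1.85 ± 0.16) rose, while Nkd1 (-1.33 ± 0.11) fell. Lgr5, a receptor for R-spondins and a target of the same pathway, stood at 61.2 and 112 CPM in Elf5 ducts, 211 and 218 in PR-cre ducts, 0.267 and 1.21 in Elf5 TEBs and 4.3 and 6.91 in PR-cre TEBs. This was one of the steepest falls of the comparison, with the lowest levels in Elf5 TEBs (log2 fold change -6.07 ± 0.43, adjusted p = 1.16e-04). Lgr4 (-0.16 ± 0.07) and Lrp6 (-0.07 ± 0.08) were not called. The secreted modulator Dkk3 (-1.99 ± 0.10) fell and Sostdc1 (0.72 ± 0.10) rose.

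In the Hedgehog pathway 5 of 14 genes fell and 2 rose (1 without Elf5 TEB replicate 1, PR-cre TEB replicate 1 or either PR-cre duct). The background for these counts was 25.9% and 26%. In the Notch pathway 6 of 24 fell and 7 rose, near that background. With one direction in both models, 5 Notch genes fell and 5 rose. The number of Notch genes that rose was 4 without Elf5 TEB replicate 1, Elf5 duct replicate 2 or PR-cre TEB replicate 1, and 3 without PR-cre duct replicate 2. In the PR-cre model alone 3 Hedgehog genes fell and 2 rose, and 4 Notch genes fell and 4 rose. The Hedgehog co-receptor Gas1 stood at 496 and 676 CPM in Elf5 ducts, 682 and 551 in PR-cre ducts, 158 and 135 in Elf5 TEBs and 151 and 177 in PR-cre TEBs, lower in every TEB library (log2 fold change -1.95 ± 0.12, adjusted p = 4.58e-07). Boc (-0.83 ± 0.08) and Ptch1 (-0.57 ± 0.12) fell by less, Gli3 (0.57 ± 0.08) rose and Smo (0.15 ± 0.07) was not called. The Notch ligands Dll1 (-1.36 ± 0.10) and Jag1 (-0.77 ± 0.09) fell, while the receptor Notch1 (0.90 ± 0.17) rose with overlapping libraries. Dll1 stood at 645 and 616 CPM in Elf5 ducts, 458 and 461 in PR-cre ducts, 228 and 232 in Elf5 TEBs and 163 and 221 in PR-cre TEBs.

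TGF-beta and BMP genes were lower in 19 and higher in 4 of 38 members, with a median of -0.66, and 15 fell in the PR-cre model alone. Ltbp2, a matrix protein of the latent TGF-beta binding family, stood at 554 and 837 CPM in Elf5 ducts, 1389 and 1319.9 in PR-cre ducts, 17.5 and 27.2 in Elf5 TEBs and 101 and 179 in PR-cre TEBs. The highest TEB library was below the lowest duct library, with Elf5 TEBs the lowest and PR-cre ducts the highest (log2 fold change -4.12 ± 0.27, adjusted p = 3.12e-05). The receptors Tgfbr1 (-0.58 ± 0.08) and Tgfbr2 (-0.69 ± 0.08), the ligands Tgfb3 (-0.90 ± 0.14) and Tgfb2 (-1.03 ± 0.11) and the feedback inhibitor Smad7 (-1.16 ± 0.09) fell, and so did the BMP readouts Id1 (-1.53 ± 0.17) and Id3 (-2.02 ± 0.17). Bmp7 (0.78 ± 0.12) and Ltbp1 (1.42 ± 0.14) rose. Genes known to respond to YAP and TAZ had 16 of 23 lower and 2 higher. These included Ankrd1 (-4.199 ± 0.30), Axl (-1.42 ± 0.08), Amotl2 (-0.94 ± 0.07) and Lats2 (-1.10 ± 0.09), while Yap1 (-0.14 ± 0.07) itself was not called and Wwtr1 (-0.88 ± 0.09) (TAZ) fell.

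Guidance molecules, first known from growing axons and also used by branching epithelia, changed in both directions. Of 70 tested, 25 rose and 19 fell, against 26% and 25.9% of all genes tested, so the share that fell was near the background. In the Elf5 model alone 15 rose and 18 fell, and in the PR-cre model alone 22 rose and 17 fell. Sema3b, a secreted semaphorin, stood at 28.1 and 9.23 CPM in Elf5 ducts, 59.1 and 64.8 in PR-cre ducts, 103 and 76.2 in Elf5 TEBs and 674 and 611 in PR-cre TEBs, with the PR-cre TEBs highest and every TEB library above every duct (log2 fold change 2.81 ± 0.37, adjusted p = 0.00187). Sema3a (3.45 ± 0.44), Sema3e (2.70 ± 0.17) and the semaphorin receptor Nrp2 (1.98 ± 0.39) rose, although Nrp2 lost its call without either Elf5 duct library (adjusted p = 0.0521 and 0.0572). So did Reln, the secreted protein reelin, from 563 ± 171 to 1182 ± 133 CPM (1.10 ± 0.12), with its receptor Vldlr (1.29 ± 0.08). Netrin 1, which is known to hold cap cells against the luminal layer, rose by 1.06 ± 0.16 in Ntn1, and its receptor Neo1 (-0.13 ± 0.07) was not called. Plxna4 (-4.71 ± 0.49), Ntn4 (-3.02 ± 0.18), Ephb1 (-1.93 ± 0.15) and Slit2 (-1.33 ± 0.11) fell.

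Neurotrophin genes (6 rose and 8 fell of 19, against 26% and 25.9% of all genes tested) changed in both directions. Ngfr, the low-affinity neurotrophin receptor, stood at 8.91 and 4.29 CPM in Elf5 ducts, 4.37 and 4.97 in PR-cre ducts, 109 and 70.5 in Elf5 TEBs and 47.8 and 35.6 in PR-cre TEBs. The tissues did not overlap (log2 fold change 3.46 ± 0.27, adjusted p = 3.39e-05). Ntrk2 (0.50 ± 0.36) was not called, Ntrk3 (-2.23 ± 0.13) fell, and the GDNF family receptors Gfra1 (-3.59 ± 0.21) and Gfra2 (-4.12 ± 0.29) fell.

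Genes used as marks of cap cells or mammary stem cells did not move as a block: 12 of 25 rose and 6 fell. The shares over all genes tested were 26% and 25.9%. Kit, a receptor tyrosine kinase usually linked to luminal progenitors, stood at 7.39 and 6.8 CPM in Elf5 ducts, 5.64 and 4.68 in PR-cre ducts, 84.3 and 70.3 in Elf5 TEBs and 67.3 and 54.9 in PR-cre TEBs. It was higher in all TEB libraries (log2 fold change 3.51 ± 0.12, adjusted p = 9.03e-09). Gng2 (1.16 ± 0.14) and Axin2 (1.01 ± 0.14) rose. Procr (-1.505 ± 0.23), Tspan8 (-4.66 ± 0.43) and Sox9 (-1.10 ± 0.12) fell, and Neo1 (-0.13 ± 0.07) was not called. Csn3, the kappa casein of milk, stood at 26.2 and 46.2 CPM in Elf5 ducts, 8.97 and 9.91 in PR-cre ducts, 765 and 898 in Elf5 TEBs and 305 and 188 in PR-cre TEBs, all TEB values being higher (log2 fold change 4.61 ± 0.25, adjusted p = 9.70e-06). Other milk protein genes mostly went the other way. Of 16 tested, 2 rose, namely Csn3 and Muc15 (0.61 ± 0.10), and 10 fell (5 in the PR-cre model alone), with a median of -1.99, and Trf (-3.89 ± 0.13), the iron carrier transferrin, was among those that fell. Kit and Csn3 belong to the list of luminal progenitor markers, of which 6 of 12 rose and 4 fell (2 fell without Elf5 TEB replicate 1, PR-cre TEB replicate 1 or PR-cre duct replicate 2, and 1 in the PR-cre model alone). This list summed to between 746 and 1005 CPM in ducts and 1592 and 1792 CPM in TEBs, without overlap. Csn3 took 22.8 ± 17.5 CPM of that sum in ducts and 539 ± 345 in TEBs (mean ± SD, n = 4 each), and Mfge8, a milk fat globule protein that was not called (0.17 ± 0.12, adjusted p = 0.00503 without Elf5 duct replicate 1), took 741 ± 148 and 868 ± 299.7. The part of luminal progenitor cells in the levels of Kit and Csn3 was not tested.

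Transcription factors of development fell slightly more often than they rose (18 and 12 of 43, against 25.9% and 26% of all genes tested). Runx1, a factor of the basal lineage, stood at 819 and 829 CPM in Elf5 ducts, 746 and 837 in PR-cre ducts, 208 and 209 in Elf5 TEBs and 117 and 159.9 in PR-cre TEBs, lower in every TEB library (log2 fold change -2.25 ± 0.10, adjusted p = 5.53e-08). Bhlhe40 (-1.96 ± 0.13), Tbx3 (-1.496 ± 0.13) and Gata3 (-1.12 ± 0.10) fell, and Tbx2 (2.01 ± 0.10) and Dlx3 (1.99 ± 0.24) rose. Sox11, an embryonic SRY-box factor, rose (3.16 ± 0.14) but differed between the models, at 35.5 and 27 CPM in Elf5 ducts, 0.384 and 0.257 in PR-cre ducts, 131 and 134 in Elf5 TEBs and 6.12 and 6.04 in PR-cre TEBs. Its Elf5 TEBs were the highest libraries, and the tissues overlapped. A list that joins EMT factors with guardians of the epithelial state had 7 members higher and 5 lower of 19. In it 3 fell without PR-cre TEB replicate 1 and in the PR-cre model alone. The list summed to between 1047 and 1653 CPM in ducts and 688 and 892 CPM in TEBs. Of its members, Snai2 (0.64 ± 0.12) rose with overlapping libraries, Zeb1 (0.28 ± 0.34) was not called, and Klf4 (-1.77 ± 0.08) fell.

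Imprinted genes, many of which are embryonic growth regulators, had 11 of 23 members higher and 4 lower. Over all genes tested the shares were 26% and 25.9%. Mest stood at 32.3 and 31.6 CPM in Elf5 ducts, 14.1 and 17.6 in PR-cre ducts, 708 and 624 in Elf5 TEBs and 281 and 217 in PR-cre TEBs. Every TEB library was well above every duct library, and the Elf5 TEBs were the highest (log2 fold change 4.18 ± 0.12, adjusted p = 4.01e-09). Cdkn1c (2.69 ± 0.11), a CDK inhibitor, Grb10 (2.52 ± 0.15), an adaptor that dampens insulin and IGF receptors, and Slc38a4 (2.94 ± 0.20), an amino acid transporter, rose. Peg3 (-1.11 ± 0.11) and Plagl1 (-2.77 ± 0.18) fell. Nup210, a nuclear pore protein, stood at 6.76 and 5.75 CPM in Elf5 ducts, 5.73 and 7.37 in PR-cre ducts, 115 and 86.6 in Elf5 TEBs and 110.3 and 106 in PR-cre TEBs, with very similar levels in both models (log2 fold change 4.03 ± 0.13, adjusted p = 7.86e-09). Genes of chromatin assembly and DNA methylation rose in 21 of 29 cases and fell in 6. Uhrf1 (2.74 ± 0.44), Hells (1.75 ± 0.14), Dnmt1 (1.42 ± 0.17) and the lamin Lmnb1 (1.79 ± 0.10) were among those that rose, and Lmna (-0.87 ± 0.09), Ezh1 (-1.52 ± 0.09) and Cbx7 (-1.49 ± 0.13) among those that fell.

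**Figure D4:**
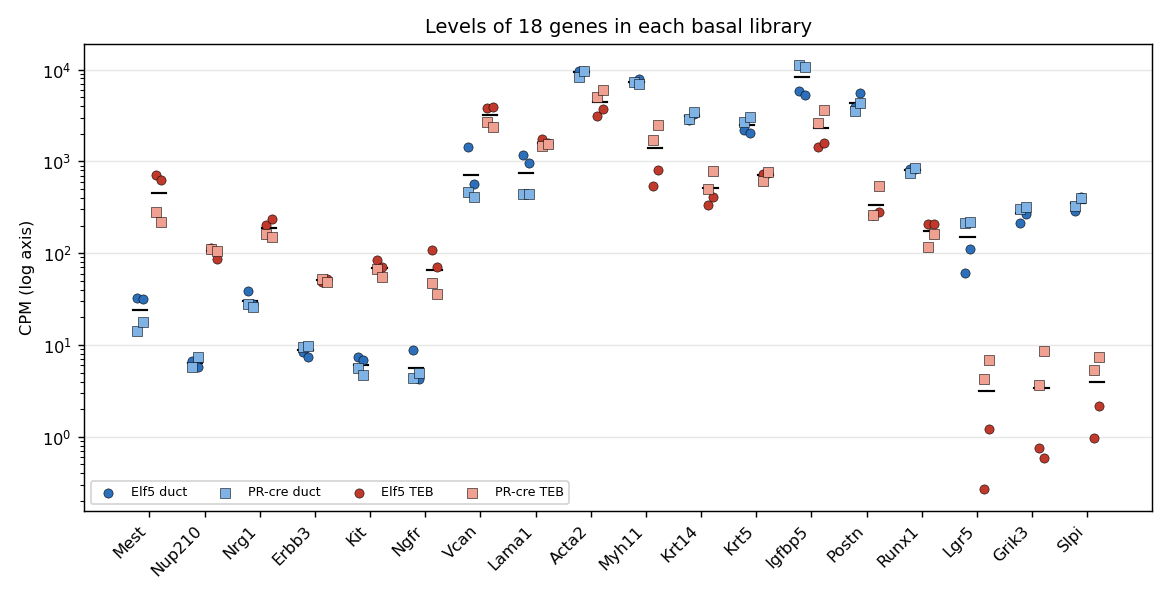
CPM (log axis) of 18 genes in each of the 8 basal libraries, with ducts in blue, TEBs in red, circles for the Elf5 model, squares for the PR-cre model and a bar at the mean of 4 libraries. TEB and duct libraries do not overlap in any of the 18 genes, and the Elf5 TEBs are the lowest libraries for Myh11, Lgr5, Grik3 and Slpi. Lack of overlap was a condition of naming for Mest, Nup210, Vcan, Lama1, Acta2, Myh11, Igfbp5, Postn, Lgr5, Grik3 and Slpi.

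Cell cycle genes were higher in TEBs with few exceptions. Of 30 genes of G2 and M phase, 29 rose and none fell, 25 of them in the PR-cre model alone, with a median of 2.46. The list summed to between 284 and 852 CPM in ducts and 3038 and 3792 CPM in TEBs, and Elf5 duct replicate 2 had the lowest sum. Pttg1 (0.25 ± 0.14), the securin, was the member that was not called (adjusted p = 0.0104 without Elf5 duct replicate 1). Cdk1, the mitotic kinase, stood at 17.1 and 6.06 CPM in Elf5 ducts, 15.2 and 17 in PR-cre ducts, 107 and 97.6 in Elf5 TEBs and 107 and 92.5 in PR-cre TEBs. The tissues did not overlap (log2 fold change 2.88 ± 0.32, adjusted p = 6.00e-04). Of 32 genes of DNA replication and S phase, 30 rose, with a median of 1.52, and Pcna (0.01 ± 0.09) and Ccne1 (0.03 ± 0.15) were not called. The helicase subunit Mcm5 stood at 45 and 9.09 CPM in Elf5 ducts, 41.4 and 33.2 in PR-cre ducts, 159 and 150.4 in Elf5 TEBs and 145 and 126 in PR-cre TEBs, again without overlap (log2 fold change 2.19 ± 0.51, adjusted p = 0.0204). Leaving out any single library but Elf5 duct replicates 1 and 2 ended the Mcm5 call (adjusted p between 0.0521 and 0.0741).

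Regulators of cell cycle entry rose in 16 of 24 cases. Ccnd1, the cyclin D needed for mammary growth, stood at 69.2 and 28.9 CPM in Elf5 ducts, 43 and 43.8 in PR-cre ducts, 441 and 440.2 in Elf5 TEBs and 234 and 195 in PR-cre TEBs. Its TEB libraries were all higher (log2 fold change 2.74 ± 0.28, adjusted p = 4.30e-04), and Ccnd2 (1.62 ± 0.08) and Cdk4 (1.21 ± 0.10) rose. Myc went the other way, at 486 and 561 CPM in Elf5 ducts, 608 and 618 in PR-cre ducts, 222 and 219 in Elf5 TEBs and 231 and 293 in PR-cre TEBs, lower in every TEB library (log2 fold change -1.24 ± 0.09, adjusted p = 1.15e-06). The inhibitors Cdkn1c (2.69 ± 0.11), Cdkn2a (4.80 ± 0.70) and Cdkn2b (4.59 ± 0.47), the last of these at about 1 CPM like Cdkn2a, rose, and Cdkn1a (-0.91 ± 0.12) fell.

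Promoters of these genes were searched for motifs known from cell cycle genes. The cell cycle genes homology region (CHR, letters TTTGAA, both strands) was found in 20 of 26 G2 and M genes with a listed window (76.9%), against 14.7% of 12246 tested genes. The CCAAT box (letters CCAAT, both strands) was found in the same number (76.9% against 42.5%), and both motifs together in 17 (65.4% against 7.22%). An E2F site (letters TTTNGCGC, both strands) was found in 10 of 26 replication genes (38.5% against 2.7%). The 2 called G2 and M genes with the largest rise among those that held both motifs and the replication gene with the largest rise that held the E2F site are shown, each as the 250 bases before its RefSeq start in GRCm38.p6. Capitals mark CHR and CCAAT matches on either strand in Ube2c (chr2:164769679-164769928, plus strand) and Cdk1 (chr10:69352913-69353162, minus strand), and E2F matches in Mcm5 (chr8:75109259-75109508, plus strand), where a pair of matches on opposite strands overlaps.
Ube2c: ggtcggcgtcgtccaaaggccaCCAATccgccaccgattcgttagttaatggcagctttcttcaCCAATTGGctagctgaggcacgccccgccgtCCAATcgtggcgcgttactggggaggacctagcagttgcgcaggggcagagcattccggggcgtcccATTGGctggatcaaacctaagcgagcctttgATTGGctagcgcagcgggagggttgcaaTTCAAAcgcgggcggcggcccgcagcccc
Cdk1: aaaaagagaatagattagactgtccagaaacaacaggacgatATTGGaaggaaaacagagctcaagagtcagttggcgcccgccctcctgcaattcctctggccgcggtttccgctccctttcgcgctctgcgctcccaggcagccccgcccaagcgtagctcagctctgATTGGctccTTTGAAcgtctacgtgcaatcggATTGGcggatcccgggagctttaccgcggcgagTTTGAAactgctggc
Mcm5: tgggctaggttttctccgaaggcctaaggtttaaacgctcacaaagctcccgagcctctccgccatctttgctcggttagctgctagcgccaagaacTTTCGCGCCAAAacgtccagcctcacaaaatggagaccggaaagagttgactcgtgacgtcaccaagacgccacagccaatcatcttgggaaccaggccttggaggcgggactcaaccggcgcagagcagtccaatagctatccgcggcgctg
In Cdk1 the CHR matches lie from 71 to 66 and from 15 to 10 bases before the start, and in Ube2c the CHR lies from 29 to 24 bases before it, with CCAAT matches upstream of these in both genes. Ube2c, which marks mitotic proteins for degradation, rose by 2.91 ± 0.59. A match describes the letters and is not evidence of binding.

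Anabolic genes rose alongside. In cholesterol synthesis and uptake, 20 of 24 genes rose and none fell (17 rose in the PR-cre model alone), with a median of 0.95. Msmo1, a sterol C4-methyl oxidase, stood at 5.14 and 4.97 CPM in Elf5 ducts, 6.7 and 6.34 in PR-cre ducts, 24.4 and 24 in Elf5 TEBs and 22.8 and 27.4 in PR-cre TEBs, higher in each TEB library (log2 fold change 2.10 ± 0.12, adjusted p = 2.01e-07). Dhcr7 (1.91 ± 0.13), which acts in the last steps of the pathway, rose as well. All 16 members with a listed promoter held a CCAAT box (100%, against 42.5% of tested genes), as did 17 of the 27 contractile genes and 17 of the 26 replication genes with a window. The sterol regulatory element (letters TCACNCCAC, both strands) was found in 1 of the 16 (6.25%, against 1.38% of tested genes). The promoter of Msmo1, the member with the largest rise, is shown with its 3 matches in capitals (GRCm38.p6, chr8:64733579-64733828, minus strand, 250 bases before the start).
Msmo1: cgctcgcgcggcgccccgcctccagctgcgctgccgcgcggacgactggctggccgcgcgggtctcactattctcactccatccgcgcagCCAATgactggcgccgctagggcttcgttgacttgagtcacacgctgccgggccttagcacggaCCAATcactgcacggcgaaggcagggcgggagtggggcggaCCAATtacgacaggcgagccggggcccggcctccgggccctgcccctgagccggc

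Fatty acid synthesis was less uniform. Elovl6 (2.31 ± 0.13), Scd1 (1.48 ± 0.09) and Scd2 (1.31 ± 0.08) rose, and over the list 9 rose and 7 fell of 23. Leaving out 1 library lowered the number that rose to 5 (PR-cre TEB replicate 1) and the number that fell to 3 (Elf5 TEB replicate 2 or PR-cre TEB replicate 1) or 4 (Elf5 TEB replicate 1 or either PR-cre duct). In the PR-cre model alone 4 rose and 4 fell. Serine and one-carbon synthesis rose in its main enzymes. Psat1, which makes phosphoserine, stood at 75.6 and 51.5 CPM in Elf5 ducts, 35.6 and 33.7 in PR-cre ducts, 294 and 295 in Elf5 TEBs and 233 and 207 in PR-cre TEBs, with TEBs above all ducts (log2 fold change 2.44 ± 0.11, adjusted p = 6.84e-08). Phgdh (1.64 ± 0.15), Psph (1.25 ± 0.10), Mthfd2 (1.63 ± 0.28) and Cad (1.00 ± 0.13), the first enzyme of pyrimidine synthesis, rose, and 17 of 24 members did so in all. Ribosome biogenesis genes rose in 21 of 28 cases, or 18 with one direction in both models, by small amounts (median 0.41). Of these members 26 rose in the Elf5 model alone and 4 in the PR-cre model alone, and for 7 members the difference between the models was called. Glycolysis genes (7 rose and 6 fell of 22, or 2 and 6 in the PR-cre model alone) lay near the background over both models, with Pkm (0.60 ± 0.11) and Eno1 (0.92 ± 0.17) higher and the glucose transporter Slc2a1 (-0.79 ± 0.10) lower.

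Immediate early genes, whose transcription responds quickly to growth factors and to stress, were lower in TEBs. Of 28 tested, 25 fell and none rose (1 rose when Elf5 duct replicate 1 was left out), with 22 lower in the PR-cre model alone. They summed to between 34266 and 47050.2 CPM in ducts and 10446 and 14438 CPM in TEBs. Fosb stood at 3919 and 6042 CPM in Elf5 ducts, 3789 and 4029.6 in PR-cre ducts, 599.8 and 651 in Elf5 TEBs and 712 and 836 in PR-cre TEBs, and all TEB values were lower (log2 fold change -2.67 ± 0.14, adjusted p = 1.13e-07). Egr1 stood at 5135 and 7201 CPM in Elf5 ducts, 5156 and 4747 in PR-cre ducts, 969 and 1176 in Elf5 TEBs and 2034 and 2450.4 in PR-cre TEBs, lower in TEBs with a smaller fall in the PR-cre model (log2 fold change -1.83 ± 0.13, adjusted p = 6.69e-07, Elf5 minus PR-cre -1.38, adjusted p = 0.0187). Atf3 (-2.26 ± 0.21), Zfp36 (-2.25 ± 0.21), Dusp1 (-2.42 ± 0.20) and Cebpd (-2.77 ± 0.31) fell as well. Not all members followed. Nr4a1 (-0.11 ± 0.11), an orphan nuclear receptor, was not called and stood at 1624 and 1489 CPM in Elf5 ducts, 912 and 1069.9 in PR-cre ducts, 1381 and 1153 in Elf5 TEBs and 889 and 1194 in PR-cre TEBs, with overlapping tissues.

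Genes of the NF-kB response fell in 20 of 30 cases and none rose (1 rose without Elf5 TEB replicate 1, without PR-cre TEB replicate 1 and with DESeq2). Vcam1 (-3.95 ± 0.28), an adhesion molecule for leukocytes, and the chemokine Cxcl14 (-2.05 ± 0.10) were among them. Vcam1 is also made by activated vessels, and in the PR-cre model alone, with the vessel sums given beside Igfbp7, its change was -3.51 ± 0.39 (adjusted p = 3.65e-04). The part of vessel transcripts in it was not tested. Cxcl14 stood at 2265 and 2757 CPM in Elf5 ducts, 2684 and 2919 in PR-cre ducts, 530.2 and 501 in Elf5 TEBs and 720.4 and 872 in PR-cre TEBs, lower in all TEB libraries. Nfkbia (-1.49 ± 0.17) and Lcn2 (-1.18 ± 0.10) fell. Heat shock and endoplasmic reticulum chaperones changed in both directions, with 10 higher and 11 lower of 26 (6 lower in the PR-cre model alone). Among them the cytosolic Dnajb1 (-1.45 ± 0.23), Dnaja1 (-1.13 ± 0.09), Bag3 (-1.41 ± 0.10) and Hspb1 (-1.75 ± 0.13) fell, while the endoplasmic reticulum proteins Pdia6 (1.13 ± 0.12), Pdia4 (1.01 ± 0.09), Hsp90b1 (0.84 ± 0.09) and Calr (0.61 ± 0.08) rose. Hsp90b1 stood at 1464 and 1365 CPM in Elf5 ducts, 1171 and 1189 in PR-cre ducts, 2407 and 2641 in Elf5 TEBs and 2263 and 1978 in PR-cre TEBs, the tissues not overlapping (log2 fold change 0.84 ± 0.09, adjusted p = 1.08e-05). Of 25 interferon response genes 10 rose and 6 fell, but 13 rose and 5 fell in the Elf5 model alone, whereas 3 rose and 9 fell in the PR-cre model alone. The difference between the models was called in 8 members. The list summed to between 612 and 863 CPM in ducts and 305 and 604 CPM in TEBs.

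Ion channels and neurotransmitter receptors formed the largest list, with 148 genes tested. Of these, 62 fell (background 25.9%) and 22 rose (background 26%), the median was -0.78, and 42 fell in the PR-cre model alone. Grik3, a kainate receptor subunit, stood at 213 and 267 CPM in Elf5 ducts, 299.8 and 320.5 in PR-cre ducts, 0.752 and 0.583 in Elf5 TEBs and 3.65 and 8.58 in PR-cre TEBs. Among genes with at least 5 CPM on average and 10 counts in each group, it had the largest fall with one direction in both models (log2 fold change -7.08 ± 0.32, adjusted p = 6.21e-06). Scn7a, an atypical sodium channel that senses sodium, stood at 813 and 1453 CPM in Elf5 ducts, 899 and 1057 in PR-cre ducts, 6.84 and 14.7 in Elf5 TEBs and 27.6 and 70.0 in PR-cre TEBs (log2 fold change -5.52 ± 0.52, adjusted p = 6.37e-04). Cacna1c (-3.42 ± 0.23), the calcium channel of smooth muscle, Cacna2d1 (-2.53 ± 0.14), Kcnma1 (-2.30 ± 0.38), Kcnmb1 (-1.57 ± 0.09) and Kcnj2 (-3.42 ± 0.14) fell, and so did Clca3a2 (-3.83 ± 0.24), a chloride channel regulator. In the other direction, Trpm3 (1.97 ± 0.09), a cation channel, and Gria3 (2.06 ± 0.09), an AMPA receptor subunit, rose with no overlap between tissues.

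Hormone and nuclear receptors fell in 14 of 27 cases and rose in 1 (2 rose without either Elf5 duct), and in the PR-cre model alone 9 fell and 2 rose. Over both models, 13 fell and 0 rose with one direction in each. Besides Oxtr, Vdr (-1.14 ± 0.08), the vitamin D receptor, Nr3c2 (-1.76 ± 0.14), the mineralocorticoid receptor, and Thrb (-2.42 ± 0.20) and Thra (-1.07 ± 0.12), thyroid hormone receptors, fell. Esr1 (-0.33 ± 0.22) was not called. Pgr lay between 18 and 40.3 CPM and Esr1 between 3.42 and 7.54 CPM in the basal libraries.

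Several of the steepest changes have not been named above. Among these, Krt79 belongs to the keratins, of which 4 rose and 17 fell of 33 tested. The genes with the largest rises by the rule, beyond those given above, were Dmrta1 (5.29 ± 0.34), a DM domain factor, Anks1b (4.72 ± 0.32), Krt79 (4.01 ± 0.80), Pcsk6 (3.91 ± 0.24), a proprotein convertase, Csrp2 (3.75 ± 0.26), a LIM protein, Tmem54 (3.77 ± 0.80), Prkag3 (3.77 ± 0.30), Ces2e (3.89 ± 0.21) and Gm16010 (4.07 ± 0.21). Anks1b stood at 3.37 and 2.32 CPM in Elf5 ducts, 0.207 and 0.971 in PR-cre ducts, 41.5 and 29.9 in Elf5 TEBs and 32.5 and 33.9 in PR-cre TEBs. The largest falls included Slpi (-6.81 ± 0.27), a secreted leukocyte protease inhibitor, Slc2a13 (-5.48 ± 0.30), a myo-inositol transporter, Wscd2 (-5.32 ± 0.36), Cxcl13 (-5.20 ± 0.56), Fam71a (-4.98 ± 0.23), Sdk1 (-4.88 ± 0.15), Thsd7a (-4.85 ± 0.20), Rap1gap2 (-4.62 ± 0.21), Sh3bgr (-4.59 ± 0.73) and Fxyd6 (-4.42 ± 0.37). Slpi stood at 289.5 and 411 CPM in Elf5 ducts, 327 and 396 in PR-cre ducts, 0.97 and 2.16 in Elf5 TEBs and 5.37 and 7.45 in PR-cre TEBs. For Anks1b and Slpi, as for the other genes named by the rule, lack of overlap between TEB and duct libraries was a condition of being named. Tmem54 lost its call without any of 5 single libraries (adjusted p up to 0.0566). By difference in CPM, Crispld2 (1.85 ± 0.15) and Fbln2 (1.45 ± 0.35) completed the largest rises and Fos (-2.83 ± 0.14) and Tagln (-1.99 ± 0.11) the largest falls. The call of Fbln2 was lost without any of 5 single libraries (adjusted p up to 0.0685).

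The TEB effect of basal cells was set against that of the 16 luminal libraries in a fit over all 24, where 4761 of 18109 genes (26.3%) differed in effect. Without luminal GFP-negative duct replicate 2 and luminal YFP-negative TEB replicate 2, which carry keratinocyte transcripts, the count was 5350. Of the 15 genes with the largest rises by the rule, 10 had an effect larger in basal than in luminal cells in this test, and of the 15 with the largest falls, 11. These genes were picked by the size of their change in the same basal libraries, which favours a larger basal effect. The counts are therefore no support for changes particular to basal cells. In luminal cells 6 of the 15 rises and 5 of the 15 falls were called in the same direction, and 2 and 3 in the opposite direction. Within the basal gate, the effect differed between the 2 mouse models in 456 genes (2.75%). Leaving out Elf5 duct replicate 1 raised that number to 1808, and it was 177 without Elf5 TEB replicate 1, 128 without Elf5 TEB replicate 2, 85 without PR-cre duct replicate 1, 91 without PR-cre duct replicate 2 and 161 without PR-cre TEB replicate 2. Myh11, Oxtr, Lama1 and Sox11, described above, are among the 456.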

How the data were processed

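The authors deposited unnormalised counts for each gene, with featureCounts and the mm10 build named in the submitters' processing notes, and the authors' gene length, which was used for RPKM. Per the labels, RNA was extracted with a miRNeasy kit. The library kit was TruSeq RNA v2, and it keeps no strand information. For the aligner, annotation release and strand setting, nothing is given in the sources used here. Symbols came from RefSeq (25262 of 27179 identifiers) and GENCODE (31). The remaining 1886 held 1.09% of basal counts.

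Genes were kept by filterByExpr (minimum count 10, minimum total 15), scaled by TMM and fitted in edgeR 4.0.16 under R 4.3.3 with 4 group means (8 libraries, 4 residual degrees of freedom). The contrast was the mean of the within-model TEB minus duct differences. P-values come from the robust quasi-likelihood F-test with Benjamini-Hochberg adjustment, with calls under 0.05, and the SE is the size of the log2 fold change divided by the square root of F. In 13 genes with a group at 0 the test returned a p near 1, and they count as not called. On simulated counts in which 200 of 16576 genes were changed, 69.4% of 2-fold and 79.3% of 4-fold changes were recovered, and 7.5% of calls were unchanged genes. In the data 52% of genes were called, so these shares describe the simulation and not the comparison itself.

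A count of 3 corresponds to between 0.0606 and 0.085 CPM. Replicates of a group differed by more than sampling noise. Without molecular identifiers, amplified copies cannot be told apart, so such floors cover counting error only. Genes named are the 15 with the largest rise and the 15 with the largest fall. These were called, with the same direction in both models, no overlap of libraries, at least 5 CPM on average and 10 counts per group. Also named are the 8 per direction with the largest CPM difference among called genes without overlap, and list members chosen by size of change or level. For genes named by either ranking, lack of overlap was thus a condition and not a result. Some list members were named after their values were seen. The comparison, its members and the 56 gene lists were chosen with earlier results of these data known. Alternatives were DESeq2 1.42.0, limma-voom (limma 3.58.1), DESeq2-style size factors, no filter, an additive model, a replicate block, all 24 libraries, a test against a 1.5-fold change, and leaving out each library. Some genes are not reported here.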

Additional observations from a re-analysis of the deposited data

Results flagged for a closer look

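Among 4 libraries of a tissue, a value was taken as standing apart when its gap to the nearest of the others, as a share of the group's whole range, exceeded Dixon's critical value at 95%. Of 602 groups of 4 looked at, over the 287 named genes and 14 marker lists, 33 held such a value. For 4 values from a single population, chance gives about 1 in 20 groups. Each group here joined libraries of both mouse models, so that rate need not apply. Elf5 duct replicate 2 stood above the other duct libraries, in CPM, for Egr1 (7201), Fosb (6042) and Snai2 (127). Elf5 duct replicate 2 stood below the other duct libraries, in CPM, for Calr (615), Lmnb1 (52.8), Mthfd2 (7.95), Pdia6 (188) and Slc2a1 (110). Elf5 duct replicate 1 stood above the other duct libraries, in CPM, for Igfbp2 (326), Igfbp4 (160), Ngfr (8.91), Vcan (1417) and the red cell marker sum (4.58). Elf5 duct replicate 1 stood below the other duct libraries, in CPM, for Dusp6 (507) and Itga9 (134). PR-cre TEB replicate 2 stood above the other TEB libraries, in CPM, for Cebpd (76.7), Fxyd6 (6.18), Myc (293), Nkd1 (52.2), Postn (535) and Wscd2 (0.635). PR-cre TEB replicate 2 stood below the other TEB libraries, in CPM, for Yap1 (376). Elf5 TEB replicate 2 stood above the other TEB libraries, in CPM, for Dnajb1 (260). Elf5 TEB replicate 2 stood below the other TEB libraries, in CPM, for Bmp7 (168) and Ror2 (67). PR-cre duct replicate 2 stood below the other duct libraries, in CPM, for Lmna (1077), Pdpn (126) and Smo (139). Elf5 TEB replicate 1 stood above the other TEB libraries, in CPM, for Gm16010 (31.1). Elf5 TEB replicate 1 stood below the other TEB libraries, in CPM, for Lamb1 (1287). PR-cre duct replicate 1 stood above the other duct libraries, in CPM, for Wnt5b (40.5). PR-cre duct replicate 1 stood below the other duct libraries, in CPM, for Acta2 (8337). PR-cre TEB replicate 1 stood below the other TEB libraries, in CPM, for Dll1 (163).

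The TEB effect differed between the 2 mouse models in 34 of the 287 named genes (edgeR's quasi-likelihood test of the difference, adjusted over 16576 genes). Values are the log2 fold change in the Elf5 model minus that in the PR-cre model, with 2 libraries per model and tissue. The fall was larger in the Elf5 model for Cacna1c (-2.71), Cacna2d1 (-1.17), Egr1 (-1.38), Fos (-1.15), Kcnj2 (-2.0), Myh11 (-1.71), Oxtr (-1.74), Rap1gap2 (-2.21), Sdk1 (-2.51), Slc2a13 (-2.87), Synpo2 (-2.08), Tagln (-0.95), Thrb (-2.28), Trf (-1.74) and Wnt5b (-1.07). The fall was larger in the PR-cre model for Hbegf (1.70) and Plagl1 (1.73). The rise was larger in the Elf5 model for Col8a1 (2.62), Pappa (0.95) and Tgfa (1.38). The rise was larger in the PR-cre model for Cdh2 (-0.83), Col2a1 (-1.85), Egflam (-1.29), Frem2 (-0.84), Lama1 (-1.13), Pcsk6 (-2.74), Prkag3 (-2.91), Ror2 (-2.07), Sox11 (-2.15), Tbx2 (-1.13) and Vldlr (-0.92). The models had opposite directions for Itga6 (-0.78), Nid1 (-0.97) and Pttg1 (1.45).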

How the results depend on the processing

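Of the 8612 called genes, 8491 were called in the same direction with DESeq2-style size factors, 8416 with DESeq2, 8478 with limma-voom, 8368 without a filter, 7742 in the additive model, 7392 in the fit over all 24 libraries and 3373 against a 1.5-fold change. With 1 library left out that number was between 7176 and 8097, and total calls were between 7283 (without Elf5 TEB replicate 2) and 9014 (without Elf5 duct replicate 1). DESeq2-style size factors called 4192 higher and 4409 lower. Against a 1.5-fold change 3358 called genes had the same direction in both models, 1541 were called in both models, 3252 in the Elf5 model and 2034 in the PR-cre model, and 86 differed between models. The number that differed between models was 973 with DESeq2, 736 without a filter and 180 over 24 libraries. With 1 library left out it ranged from 85 to 1808. The other ranges were 2657 to 4748 called in both models, 3143 to 6346 in the PR-cre model, 5137 to 7648 in the Elf5 model, 7178 to 8705 with the same direction, and 3846 to 4723 for the difference from luminal cells. Such fits assume that the lone sample of a group varies like the other groups. The cause of these moves was not tested. With the replicate number as a block, 7033 genes were called and 751 differed between models. Same-numbered libraries correlated in their deviations at 0.0659 (Elf5) and 0.0549 (PR-cre), under 0.1, so the numbers were not taken as pairs. Over the named genes, no called gene changed sign in these alternatives, and their calls were kept in 4108 and lost in 100 combinations of a gene and an alternative. Genes that were not called and lay near 0 did change sign. Ccne1 had -0.0087 with 24 libraries and between -0.11 and 0.20 with 1 library left out. Itga6 had between -0.051 and 0.025 with 1 library left out. Pcna had -0.0093 with DESeq2-style size factors, -0.0093 with DESeq2, -0.028 with 24 libraries and between -0.057 and 0.083 with 1 library left out.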
